A study of Mus musculus with 10 samples.

Results

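The genes described here are 10 markers of tubular injury and dedifferentiation in the kidney, Havcr1, Lcn2, Vcam1, Sox9, Krt8, Krt18, Krt19, Krt20, Clu and Cdkn1a. They were chosen by name and not by their values, although earlier results of these data were known when they were chosen. They are 10 of the 54532 genes in the deposited count table, and all 10 passed the filter on low counts. Bulk RNA-seq was performed on obstructed kidneys of wild-type male C57BL/6 mice whose left ureter had been ligated when they were 8 weeks old (unilateral ureteral obstruction, UUO), and the kidneys were taken 14 days later. One group of 5 mice received dimethyl malonate (DMM), an ester that inhibits succinate dehydrogenase, by intraperitoneal injection of 40 mg/kg every other day. The control group of 5 mice received PBS. Unobstructed kidneys were not analysed here, so every level given is that of an injured kidney. Each mouse gave 1 library, with total counts between 16457495 and 18078777 in the PBS group and between 15722527 and 19475833 in the DMM group.

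When the tubule is injured, its epithelial cells lose transport functions and switch on genes that the healthy proximal tubule keeps low. Havcr1 encodes KIM-1, a surface receptor for apoptotic cells, and Lcn2 encodes NGAL, a secreted protein that binds iron-carrying siderophores. Both are widely used as injury markers. The keratins form intermediate filaments, Vcam1 is an adhesion molecule that also marks tubular cells with incomplete repair, Sox9 is a transcription factor of regenerating tubules, Clu is a secreted chaperone, and Cdkn1a encodes p21, which halts the cell cycle downstream of p53. The question put to these genes was whether DMM-treated UUO kidneys carried lower levels of them than PBS-treated kidneys.

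Some libraries stood apart before any marker was compared. The group means that the authors deposited give PBS replicate 3 and DMM replicate 1 a weight of 0, and the other 8 libraries weights above 0. The paper's methods give 5 mice per group, and the reason for these weights is not known here. Values are therefore given over all 10 libraries and over those 8, and since the sets share 8 libraries they are no independent checks of each other. Markers of the proximal tubule were high in PBS replicate 3, and interferon response genes were at PBS levels in DMM replicate 1. Both omitted libraries thus ran against their group, and calls over the 8 libraries may depend on that choice. The mean log2 CPM of 17 interferon response genes, with the PBS average subtracted, was -0.11 in DMM replicate 1 and between -3.52 and -2.75 in the other DMM kidneys. DMM replicate 4 lay away from all other libraries. On the first principal component of log2 CPM over 16505 genes, which held 45.1% of the variance, it was at 123 and the other 9 libraries were between -20.7 and -2.36. Its deviations from the mean of the libraries rose with gene length across 11466 genes (Spearman's rho 0.532 across genes, which are not independent replicates). The other libraries had rho between -0.288 and -0.121. That mean includes DMM replicate 4, so the sign of the other values is not independent of it. DMM replicate 4 had counts on 20029 genes, against 22898 to 24083 in the others. The proliferation gene Mki67 was at 513 CPM in it and at 47.5 to 95.8 CPM in the others. Top2a, Bub1 and Ccnb1, also genes of dividing cells, were highest in it too. Cdk1 and Aurkb of the same list, at 11.5 and 7.25 CPM, were not. They lay within the range of the others, 7.54 to 24.0 and 5.17 to 14.5 CPM. Many results moved when DMM replicate 4 was left out, and the main ones are also given without it.

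On a per-length scale, the markers spanned more than a 100-fold range. Clu had the highest deposited FPKM, with a median of 1097 over the 10 libraries (range 802 to 1220), and every value lay above the highest Havcr1 value. Havcr1 followed with a median of 346 FPKM (214 to 465), then Krt8 with 223 (180.4 to 246), Lcn2 with 151 (106 to 197) and Krt18 with 100.9 (77.5 to 132). Vcam1 (median 59.5 FPKM, 27.7 to 95.3) and Krt19 (52.4, 25.7 to 94.5) could not be ordered, since Vcam1 was the higher in 5 of 10 libraries. The same held for Krt20 (22.03 FPKM, 11.7 to 42.4) and Cdkn1a (18.0, 15.2 to 28.6), with Krt20 the higher in 5 of 10. Sox9 was lowest, with a median of 8.23 FPKM (5.48 to 11.2), below Cdkn1a in every library and with no overlap of the ranges. The ranges of all other neighbours in this order overlapped, although Havcr1 was above Krt8 in 9 of 10 libraries and Krt8 above Lcn2, Lcn2 above Krt18 and Krt18 above Vcam1 in 10 of 10. Krt19 was above Krt20 in 9 of 10. Among all genes of a library, Clu ranked between 11 and 21 by FPKM and Havcr1 between 34 and 113.

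None of the 10 markers was called different between DMM and PBS kidneys, neither over all 10 libraries nor over 8 (edgeR, quasi-likelihood test, Benjamini-Hochberg adjustment over all tested genes, where a call needs both an adjusted p below 0.05 and a change of more than 1.5-fold). Over all 10 libraries no gene of the 16505 tested was called (0% higher and 0% lower), while DESeq2 called 14 genes higher and 36 lower. Before adjustment, at p below 0.05 with the same fold change, edgeR had 315 genes higher (1.91%) and 678 lower (4.11%), with 0 markers among them. In the set of 8 libraries, 452 genes were called higher (2.73%) and 590 lower (3.56%) of 16550, and 0 markers. When counts were scaled by library size only, and not by TMM, these numbers were 276 and 700, with the median log2 fold change of all genes at -0.09 in place of 0.02. At an unadjusted p, 1067 genes were higher (6.45%) and 1198 lower (7.24%) over the 8 libraries, and Krt19 was the 1 marker among them. With no minimum fold change, 1187 genes (7.17%) passed the adjusted p, and Cdkn1a was the 1 marker among them. The markers' median log2 fold change of DMM over PBS was -0.04 over all 10 libraries, against 0.02 over all genes, with 4 markers higher and 6 lower. In the 8 libraries this median was -0.14, against 0.02, with 2 higher and 8 lower. The sign of Lcn2, whose log2 fold change was near 0, turned with library size scaling over all 10 libraries and with RLE size factors over the 8.

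**Figure D1:**
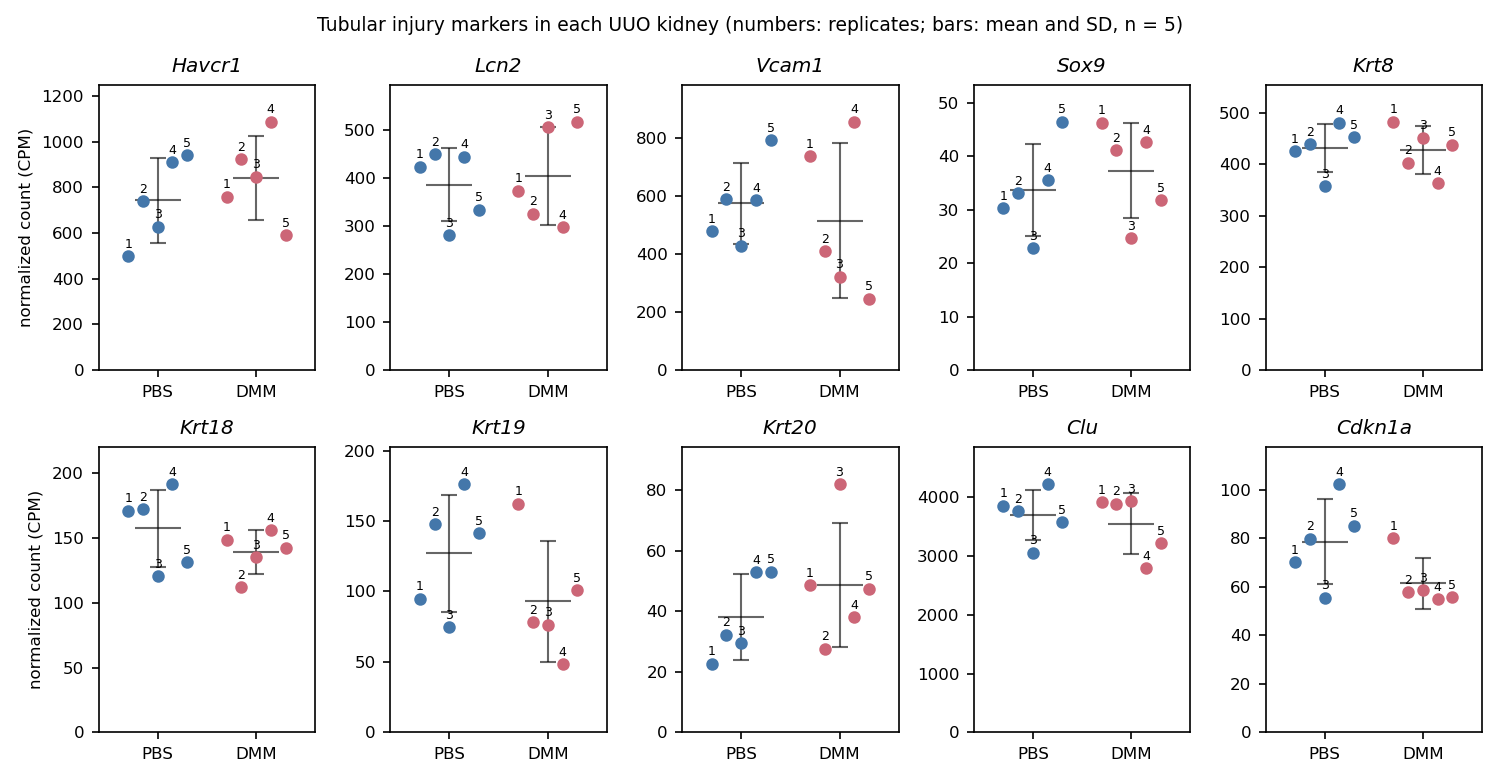
Normalized count (CPM with TMM over all 10 libraries, linear axes from 0) of each marker in each UUO kidney, PBS in blue and DMM in red, with the replicate number above each point and bars for the mean and SD (n = 5). The Cdkn1a values of DMM replicates 2 to 5 lie between 54.8 and 58.7 CPM, next to PBS replicate 3 at 55.5 CPM, and DMM replicate 1 at 80.1 CPM lies among the other PBS kidneys.

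Havcr1 (chromosome 11, 46735080 to 46779578, plus strand) did not differ between the groups beyond the spread of the mice. It was at 499.9, 739, 628, 910.0 and 941 CPM in PBS replicates 1 to 5 and at 759, 925, 847, 1087 and 589.8 CPM in DMM replicates 1 to 5. The groups overlapped over most of their range, and the lowest and the second lowest value came from 1 group each. The mean was 744 ± 187 CPM (SD, n = 5) in PBS and 842 ± 185 CPM (SD, n = 5) in DMM kidneys. The log2 fold change was 0.18 over all 10 libraries (standard error 0.21, adjusted p = 0.737, edgeR), with a 95% confidence interval from -0.28 to 0.64. With 8 libraries it was 0.16 (interval -0.39 to 0.70), and 0.03 without DMM replicate 4 (interval -0.47 to 0.53). A fall of Havcr1 to 0.763 of the PBS level or lower lay outside the interval over the 8 libraries.

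Lcn2 (chromosome 2, 32384633 to 32388252, minus strand) was likewise spread alike in both groups. It was at 424, 451, 282, 445 and 334 CPM in PBS replicates 1 to 5 and at 374, 327, 507, 298 and 518 CPM in DMM replicates 1 to 5. The 2 highest and the second lowest of the 10 values were DMM kidneys. The difference over all 10 libraries was a log2 fold change of 0.06 (adjusted p = 0.904, edgeR), and over the 8 it was 0.00 (interval -0.48 to 0.47). Slc22a17, which encodes a receptor for lipocalin-2, was at 14.9 to 23.3 CPM in PBS kidneys and at 7.19 to 35.5 CPM in DMM kidneys, with the lowest value in DMM replicate 4. Of 17 genes of receptors, ligands and relatives of the markers 15 were tested, and their median log2 fold change was 0.09 in all 10 libraries against 0.00 in the 8. In the 8 libraries 1 was called higher and 1 lower. The higher one was Timd2, a relative of Havcr1, at a log2 fold change of 0.68. This gene and Itgb7 below are outside the rule for named genes and were singled out after their values were seen. Timd2 was at 43.5, 49.0, 44.6 and 63.2 CPM in PBS replicates 1, 2, 4 and 5 and at 99.95, 72.3, 72.8 and 75.1 CPM in DMM replicates 2 to 5. PBS replicate 3, at 80.3 CPM, and DMM replicate 1, at 47.3 CPM, went the other way. Without DMM replicate 4, 2 genes of this list were called higher, Timd2 and Slc22a17, and 2 lower, Itgb7 and Itga4. Its call was lost in edgeR when any 1 of PBS replicates 1, 2 and 4 or DMM replicates 2, 3 and 5 was left out, with adjusted p between 0.0812 and 0.139.

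Among the 4 keratins of the marker list, Krt19 had the largest difference over the 8 libraries. Krt8 and Krt18, the partners of simple epithelial filaments, lie on chromosome 15 with 23697 bases between them (101996698 to 102004482, minus strand, and 102028180 to 102032027, plus strand). Krt8 was at 357 to 481 CPM in PBS and at 363 to 482 CPM in DMM kidneys. All 10 libraries gave a log2 fold change of -0.01, with an interval from -0.27 to 0.25. The interval over the 8 libraries, -0.38 to 0.14, held no 1.5-fold change in either direction. Krt18 was at 121 to 191 CPM in PBS and at 112 to 156 CPM in DMM kidneys, with log2 fold changes of -0.18 over all 10 libraries and -0.29 over the 8 (standard error 0.15, adjusted p = 0.315, edgeR). The ratio of Krt8 to Krt18 in FPKM had a median of 1.88 in PBS (1.83 to 2.53) and 2.38 in DMM kidneys (1.71 to 2.64), so that the groups overlapped. The pseudogene Krt8-ps had 6 to 13 counts in any library.

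Krt19 (chromosome 11, 100140810 to 100148665, minus strand) is a keratin of ducts and of tubules that have lost their mature state. It was at 94.8, 148, 74.7, 176 and 141 CPM in PBS replicates 1 to 5. In DMM replicates 1 to 5 it was at 162, 78.3, 76.3, 48.2 and 100.8 CPM. DMM replicates 2, 3 and 4 lay below 4 of 5 PBS kidneys, whereas DMM replicate 1 was the second highest of all and PBS replicate 3 was the second lowest. For the 8 libraries the log2 fold change was -0.88 (standard error 0.25), an expression ratio of 0.542 with a 95% confidence interval from 0.367 to 0.799. The unadjusted p was 0.00601 and the adjusted p 0.0678 (edgeR), which missed the threshold. DESeq2 gave an adjusted p of 0.0143 for the same libraries. Over all 10 libraries it was -0.45 (standard error 0.32, adjusted p = 0.582, edgeR). Without DMM replicate 4, which had the lowest value, the log2 fold change over the other 7 of the 8 libraries was -0.72 and the adjusted p 0.0220 (edgeR).

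Krt20 (chromosome 11, 99428403 to 99438150, minus strand), a keratin of umbrella cells that injured tubules also express, varied more than 2-fold within each group. It was at 22.7 to 53.1 CPM in PBS and at 27.6 to 82.0 CPM in DMM kidneys, and DMM replicate 3 had the highest value. Its log2 fold change was 0.36 over all 10 libraries (interval -0.33 to 1.04) and 0.28 over the 8 (interval -0.56 to 1.12), where its interval was the widest of the 10 markers. Of 14 other keratins 10 were tested, and their median log2 fold change was -0.25 over all 10 libraries and -0.37 over the 8. Krt17, a keratin of stressed and basal epithelium, was the 1 of them called, at a log2 fold change of -1.82 in the set of 8, and it too is outside the rule and was chosen after its values were seen. It was at 4.93, 13.5, 6.01 and 10.9 CPM in PBS replicates 1, 2, 4 and 5, at 0.900 CPM in PBS replicate 3, at 13.8 CPM in DMM replicate 1 and at 1.40 to 4.41 CPM in DMM replicates 2 to 5. Without DMM replicate 4, Krt4 was called lower as well. When any 1 of PBS replicates 2, 4 and 5 or DMM replicates 3 and 5 was left out, the adjusted p of Krt17 was between 0.0735 and 0.121 (edgeR). The most abundant other keratins by count were Krt7, at 191 to 263 CPM in PBS and 129 to 268 CPM in DMM kidneys, and Krt5, at 15.7 to 73.7 and 13.2 to 69.9 CPM. Neither was called, with log2 fold changes over the 8 libraries of -0.13 for Krt7 and -0.86 for Krt5.

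Vcam1 (chromosome 3, 116109949 to 116129688, minus strand) had its highest value in a DMM kidney and its lowest in another. It was at 478, 588, 429, 584 and 791 CPM in PBS replicates 1 to 5 and at 736, 410.0, 321, 855 and 247 CPM in DMM replicates 1 to 5. DMM replicate 4 had the highest value of all 10 kidneys, and DMM replicates 2, 3 and 5 had the 3 lowest. The log2 fold change was -0.16 over all 10 libraries (standard error 0.33, adjusted p = 0.852, edgeR) and -0.41 over the 8 (standard error 0.36, adjusted p = 0.554, edgeR). Without DMM replicate 4, it was -0.90 over the other 7 of the 8 libraries (standard error 0.20, adjusted p = 0.00951, edgeR), which passed the call. When it was left out of all 10 libraries, the fit gave -0.42 (adjusted p = 0.458, edgeR), which was not called, and leaving out DMM replicate 4 with only 1 of PBS replicate 3 and DMM replicate 1 was not tested. In the fit over 7 libraries 1129 genes were called higher (6.71% of 16828) and 1281 lower (7.61%), and Vcam1 and Krt19 were the 2 markers called lower and 0 markers were called higher. At an adjusted p under 0.05 with no minimum fold change, 4727 genes (28.1%) passed, and with them 3 of the 10 markers, the third being Cdkn1a. Vcam1 has the longest gene length of the markers, 8870 bases. The deviations of DMM replicate 4 from the mean of the libraries rose with gene length, but the part of length in the Vcam1 value there was not tested. With a correction for gene length in each library, which was added after the data were examined, the log2 fold change of Vcam1 over the 8 libraries went from -0.41 to -0.59, and it was not called (adjusted p = 0.220, edgeR). Of the integrin chains that bind VCAM-1, Itga4 was at 31.2 to 47.6 CPM in PBS and at 20.4 to 39.996 CPM in DMM replicates 1, 2, 3 and 5, with 76.9 CPM in DMM replicate 4. Itgb1 was at 741 to 982 CPM in PBS kidneys, at 723 to 930.0 CPM in the same 4 DMM kidneys and at 1364 CPM in DMM replicate 4. Itgb7 was called lower over the 8 libraries, with a log2 fold change of -0.91. It was at 14.2 to 22.8 CPM in PBS and at 7.55 to 17.8 CPM in DMM kidneys, and its call was lost when any 1 of the PBS replicates or DMM replicates 3 and 5 was left out (adjusted p between 0.0585 and 0.140, edgeR).

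**Figure D2:**
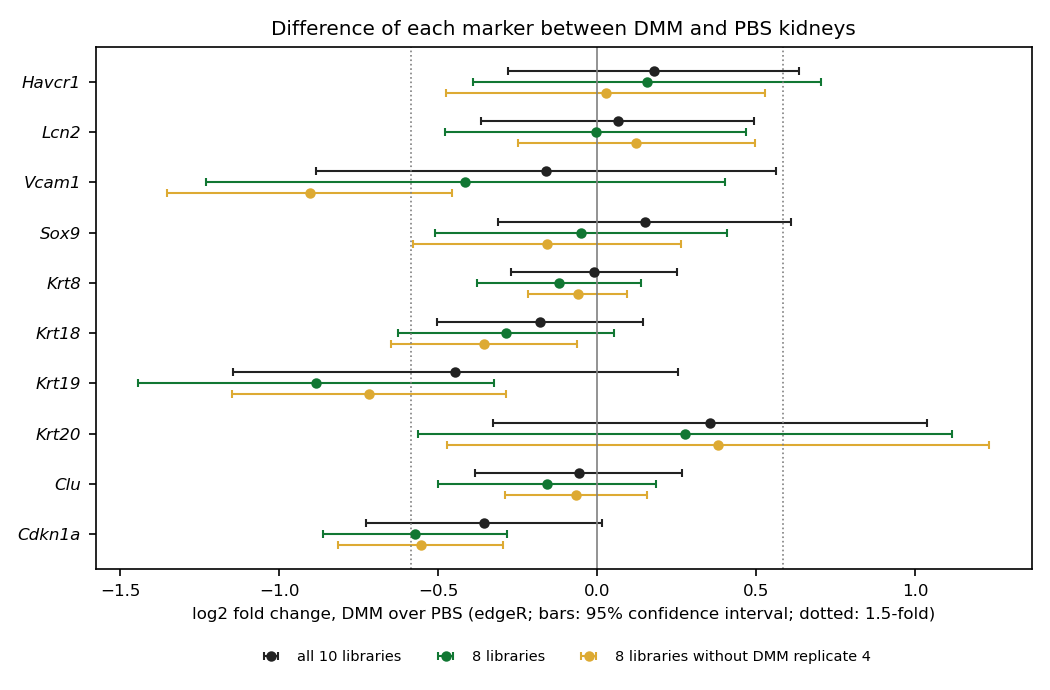
Log2 fold change of DMM over PBS for each marker (points) with its 95% confidence interval (bars) from edgeR, over all 10 libraries, over 8 libraries and over those 8 without DMM replicate 4, with dotted lines at a 1.5-fold change. The intervals of Krt19 and Cdkn1a exclude 0 over the 8 libraries, and that of Vcam1 runs from -1.23 to 0.40 over the 8 libraries and from -1.35 to -0.46 without DMM replicate 4.

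Sox9 and Clu did not differ between the groups beyond the spread of the mice. Sox9 (chromosome 11, 112782224 to 112787760, plus strand) was at 22.9 to 46.5 CPM in PBS and at 24.7 to 46.3 CPM in DMM kidneys. Its log2 fold change was 0.15 over all 10 libraries and -0.05 over the 8, with an interval from -0.51 to 0.41 over the 8. Clu (chromosome 14, 65968483 to 65981547, plus strand) was at 3052 to 4216 CPM in PBS and at 2788 to 3926 CPM in DMM kidneys. The log2 fold change of Clu was -0.06 over all 10 libraries (interval -0.38 to 0.27) and -0.16 over the 8 (interval -0.50 to 0.19), which held no 1.5-fold change in either direction.

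Cdkn1a (chromosome 17, 29090976 to 29100727, plus strand) had the smallest p of the 10 markers in both sets. It was at 70.1, 79.8, 55.5, 102 and 85.2 CPM in PBS replicates 1 to 5. In DMM replicates 1 to 5 it was at 80.1, 57.9, 58.7, 54.8 and 55.7 CPM. DMM replicates 2 to 5 lay within 4 CPM of each other and below PBS replicates 1, 2, 4 and 5, whereas PBS replicate 3 was among the DMM values and DMM replicate 1 among the PBS values. Across these 8 libraries, the mean was 84.1 ± 13.5 CPM (SD, n = 4) in PBS and 56.6 ± 1.82 CPM (SD, n = 4) in DMM kidneys, an expression ratio of 0.672 with a 95% confidence interval from 0.550 to 0.822. The log2 fold change was -0.57 (standard error 0.13), and the adjusted p of 0.0315 (edgeR) passed its threshold, while the fold change was just under 1.5. The groups did not overlap over the 8 libraries, as was the case, with DMM below PBS, for 1763 genes (10.7% of those tested). Leaving out PBS replicates 2, 4 or 5 or DMM replicates 2, 3 or 5 took the adjusted p over 0.05, to between 0.0611 and 0.1003, and leaving out PBS replicate 1 or DMM replicate 4 gave 0.0370 and 0.00724 (edgeR). Without PBS replicate 1 the log2 fold change was -0.65, and Cdkn1a passed the call. Over all 10 libraries the log2 fold change was -0.36 (standard error 0.17, unadjusted p = 0.0583, adjusted p = 0.478, edgeR). A gene on the opposite strand within Cdkn1a had at most 26 counts in any library.

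Of 28 genes of the p53 response and of cell cycle arrest, all were tested and 0 were called by edgeR in either set. Their median log2 fold change was -0.13 over all 10 libraries and -0.12 over the 8. Phlda3, a p53 target that restrains Akt, came first by p, and its log2 fold change over the 8 libraries was -0.97 (adjusted p = 0.102, edgeR). DESeq2 gave -0.96 with an adjusted p of 0.0311, which passed the call. It was at 26.0 to 49.1 CPM in PBS kidneys, at 20.3 to 43.8 CPM in DMM replicates 1, 2, 3 and 5 and at 9.73 CPM in DMM replicate 4, without which the fit gave -0.73 (adjusted p = 0.0117, edgeR) and it passed the call as lower. Eda2r was also called lower there, and Gadd45a higher. Aen, a p53-induced nuclease, had -0.45, and the stress gene Gadd45b had -0.71. The p53 targets did not all share this sign. Ccng1, at a log2 fold change of 0.56 in the 8 libraries, was at 387 CPM in DMM replicate 4, against 139 to 187 CPM in the other 9 libraries, and without that library its log2 fold change was 0.17. Igfbp7, the most abundant gene of the list by count, was at 435 CPM in DMM replicate 4 and at 2031 to 2376 CPM elsewhere, and its log2 fold change over the 8 libraries moved from -0.38 to -0.06 without DMM replicate 4.

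The markers were set beside the level of 16 proximal tubule genes measured in the same libraries. Over the 10 libraries, log2 CPM of Cdkn1a fell as the mean log2 CPM of these genes rose (Pearson's r = -0.937, permutation p = 0.00015, adjusted p = 0.0015 over 10 markers; Spearman's rho = -0.830, permutation p = 0.00474, adjusted p = 0.0474). Without PBS replicate 4 and DMM replicate 5, the 2 libraries farthest from the median of the proximal tubule genes, r was -0.892. With the group means taken off both measures it was -0.925, and without DMM replicate 4 it was -0.981. PBS replicate 3 and DMM replicate 1 followed the same relation, each at the Cdkn1a level of the kidneys with a like level of proximal tubule genes. Of 16489 tested genes outside the list, 12 (0.0728%) had an r as low as that of Cdkn1a or lower, Cdkn1a included. For the other 9 markers r was between -0.705 and -0.056, and none passed at an adjusted p under 0.05. Krt19 (r = -0.705, rho = -0.697), Vcam1 (r = -0.688, rho = -0.673) and Krt18 (r = -0.677, rho = -0.552) each had an adjusted permutation p of 0.0795 for r, and Krt8 had 0.144. An r as low as that of Krt19, Vcam1 and Krt18 or lower was found in 6.56%, 7.34% and 7.88% of the 16489 genes. Without DMM replicate 4, r was -0.862 for Krt19 and -0.803 for Vcam1. Havcr1 (r = -0.274, rho = -0.285, adjusted permutation p = 0.553), Krt20 (r = -0.140) and Lcn2 (r = -0.056) had the values nearest to 0. The median r of all genes outside the list was -0.026. Values in one library share its scaling, and the part of this in the correlations was not tested.

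**Figure D3:**
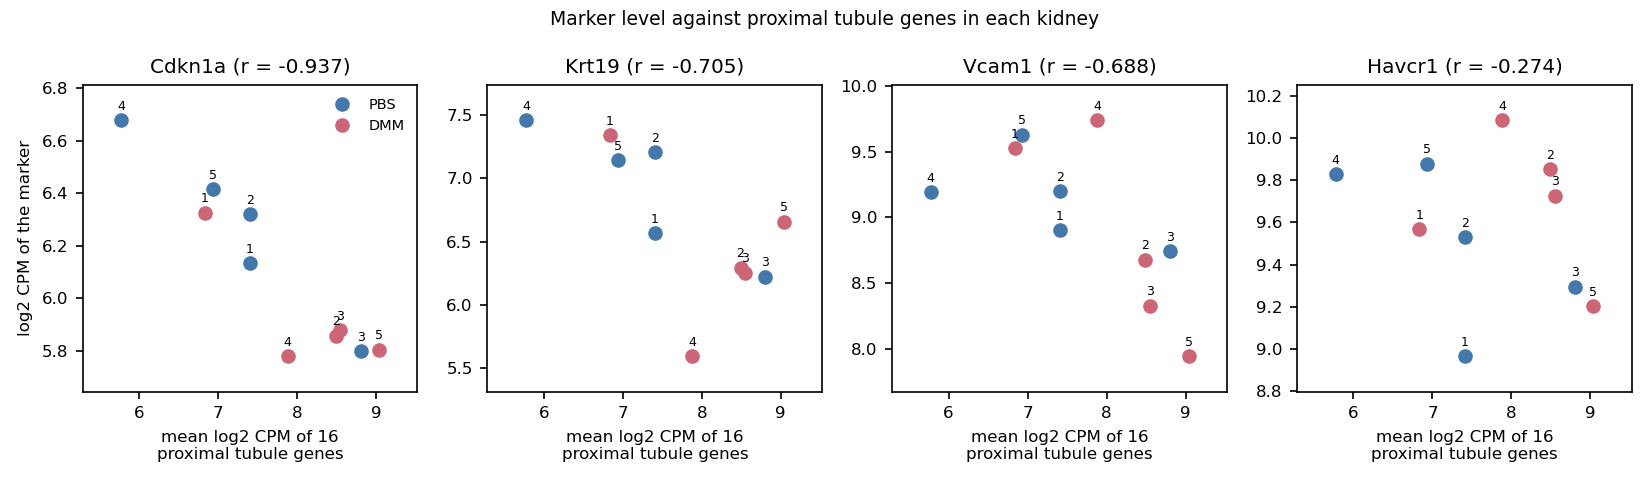
Log2 CPM of Cdkn1a, Krt19, Vcam1 and Havcr1 (vertical axes) against the mean log2 CPM of 16 proximal tubule genes (horizontal axes) in the 10 UUO kidneys, PBS in blue and DMM in red, with the replicate number above each point. Pearson's r is -0.937 for Cdkn1a and -0.274 for Havcr1, and PBS replicate 3 lies beside DMM replicates 2, 3 and 5 in the panel of Cdkn1a.

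In bulk tissue, fewer cells of a type and less RNA per cell cannot be told apart, so the levels of cell type markers are given beside these results. All 16 proximal tubule genes were tested, none of which was at 0 in every library, and Kap was the most abundant. Their summed level was 5257, 5272, 13379.5, 2148 and 4100 CPM in PBS replicates 1 to 5 and 3985, 10743, 9446, 7832 and 13655 CPM in DMM replicates 1 to 5. In the 8 libraries 5 of the 16 were called higher and 0 lower, with a median log2 fold change of 1.52, and without DMM replicate 4 there were 15 of 16, with a median of 1.59. The endocytic receptor gene Lrp2 had 1.97 in this measure (adjusted p = 0.0138, edgeR; 0.0590 without PBS replicate 5), and in all 10 libraries it had 1.24 (adjusted p = 0.430, edgeR). Kap was not called, with 0.98 in the 8 libraries (adjusted p = 0.278, edgeR) and 0.23 in all 10 (adjusted p = 0.871, edgeR), but passed in the 8 without DMM replicate 4 (adjusted p = 0.0399, edgeR). Genes of the whole tubule epithelium, such as Cdh16, had 0 of 8 called by edgeR, and their median over the 8 libraries was -0.02. Of the loop of Henle and distal tubule genes 4 of 7 were called higher, Slc12a1 among them with a log2 fold change of 1.53, and of the collecting duct genes 3 of 12, with 6 and 5 without DMM replicate 4. The Slc12a1 call was lost when any 1 of PBS replicates 2, 4 and 5 or DMM replicates 3 and 5 was left out (adjusted p between 0.0591 and 0.0770, edgeR). Umod, the most abundant of this list, had 0.62 and was not called (adjusted p = 0.389, edgeR; 0.00661 without DMM replicate 4). The 8 fibroblast genes summed to 6642, 9759, 5237, 14386 and 9179 CPM in PBS replicates 1 to 5 and to 11261, 5327, 3735, 7363 and 4277 CPM in DMM replicates 1 to 5, with Col3a1 the most abundant. Of these 2 were called lower over the 8 libraries, Postn and Col1a2, of 8 macrophage genes 2, and of 6 T cell genes 1. These numbers were 4, 6 and 3 without DMM replicate 4. Col1a1, at a log2 fold change of -1.07, was not called by edgeR (adjusted p = 0.0750), while DESeq2 gave an adjusted p of 0.00874. Nor did edgeR call Col3a1 at -1.01 (adjusted p = 0.148), Lyz2 of the macrophage list at -0.95 (0.0790) or Cd8a of the T cell list at -1.27 (0.102), where DESeq2 gave 0.0466, 0.0155 and 0.0246. The complement gene C1qb was called at -1.35 and Cd4 at -1.19. The call of C1qb was lost with any library but DMM replicate 4 left out (adjusted p between 0.0556 and 0.138, edgeR), and that of Cd4 without any 1 of PBS replicates 2, 4 and 5 or DMM replicates 3 and 5 (0.0546 to 0.0922). Among the interferon response genes 17 of 17 were called lower with and without DMM replicate 4, Ifit3 among them at -3.68. For genes of urothelium, endothelium, neutrophils, and podocytes and parietal cells, 0 were called by edgeR, with median log2 fold changes over the 8 libraries of -0.38, -0.08, 0.05 and -0.04. Of 6 genes of dividing cells 1 was called lower, and their median was 0.11. The signs of the neutrophil and dividing cell medians rested on DMM replicate 4, without which they were -1.46 with 0 called and -0.77 with 3 called lower. Over all 10 libraries edgeR called 0 genes of any of these lists. The part of cell types in the values of Cdkn1a, Krt19 and Vcam1 was not tested. Urothelial genes summed to 88.8 to 188 CPM in PBS and to 31.9 to 182 CPM in DMM kidneys, with DMM replicate 4 lowest.

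Of 40 other genes of injured tubules, all tested, 3 were called higher and 1 lower over the 8 libraries. Their median log2 fold change was -0.04, and over all 10 libraries 0.02 with 0 called by edgeR. The 3 called higher were the fibrinogen chains Fga, Fgb and Fgg, genes of the clotting protein that injured tubular cells also make. Fgg was at 35.9, 58.7, 51.1, 29.5 and 41.2 CPM in PBS replicates 1 to 5 and at 40.5, 175, 149.8, 92.7 and 253 CPM in DMM replicates 1 to 5. DMM replicates 2 to 5 lay above every PBS kidney, and DMM replicate 1 within the PBS range. Its log2 fold change was 2.02 over the 8 libraries (standard error 0.32, adjusted p = 0.00875, edgeR) and 1.72 over all 10 (adjusted p = 0.378, edgeR). In all 10 libraries DESeq2 called Fgg (adjusted p = 0.0138) and Fgb (adjusted p = 0.0254) higher. Fgb, with 1.66, had the same separation at 6.69 to 12.1 CPM in PBS kidneys, 6.79 CPM in DMM replicate 1 and 23.1 to 36.3 CPM in DMM replicates 2 to 5. Fga had 1.80 (adjusted p = 0.0256, edgeR), and its adjusted p was between 0.0534 and 0.0940 when any 1 of the PBS replicates or DMM replicates 2, 3 and 5 was left out. Anxa1, which encodes the phospholipid-binding protein annexin A1, was the 1 gene called lower, at 120.1 to 130.1 CPM in PBS replicates 1, 2, 4 and 5, 82.6 CPM in PBS replicate 3, 122 CPM in DMM replicate 1 and 69.8 to 93.4 CPM in DMM replicates 2 to 5. The adjusted p was 0.0169 (edgeR), at a log2 fold change of -0.60. Leaving out PBS replicate 4 or 5 or DMM replicate 3 or 5 took its adjusted p to between 0.0514 and 0.0618. Spp1, which encodes osteopontin, was the most abundant of the list by count, at 11039 to 15776 CPM in PBS and 13507 to 17926 CPM in DMM kidneys, with a log2 fold change of 0.30 in both sets. Complement C3 was at 5088 CPM in DMM replicate 4 and at 1660 to 2686 CPM in the other 9 libraries. Without DMM replicate 4, its log2 fold change over the 8 libraries moved from 0.47 to 0.03, while 6 genes of the list were called higher, Fga, Fgb, Fgg, Gdf15, Itgb8 and Hbegf, and 4 lower, Cd44, Vim, Ccl2 and Anxa1. These additions were named after their values were seen.

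The 5 genes whose log2 CPM was most like that of Havcr1 over the 10 libraries, among 16504, were Gm2810 (Pearson's r across libraries 0.924), Lilra6 (0.922), Xkr5 (0.916), Adamts1 (0.891) and Ints10 (0.885). They were picked as the highest of all genes, so that no test applies. Gm2810, Lilra6 and Xkr5 were near the limit of detection, at no more than 3.44 CPM in any library. Adamts1, which encodes a secreted metalloproteinase, was at 380.5 to 562 CPM, and Ints10, of the Integrator complex, at 24.0 to 29.6 CPM. In both, PBS replicates 1 and 3 and DMM replicate 5 were among the lowest libraries, and DMM replicate 4 was the highest for Adamts1.

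Promoter windows of RefSeq genes (build GRCm38.p6, the build of mm10) matched 6 of the 10 markers with 9 windows, and Vcam1, Sox9, Krt19 and Clu had none. The 250 bases before each start were searched on both strands for 6 motifs. A pair of p53 core letters, chosen after the sequences were seen, was in 1 of the 9 windows, at a start of Cdkn1a, and in 0.490% of 32851 windows of all genes. The TATA box letters were in 1 window, of Krt20 (12.4% of all windows). The NF-kB letters were in 4 windows, of Lcn2, Krt8, Krt18 and Cdkn1a (45.8% of all). The AP-1 letters (6.75% of all), the STAT letters (7.02%) and the interferon response letters (2.98%) were in 0 of the 9. The 2 windows of Cdkn1a are shown because it is the marker with the smallest p and a known p53 target, in the 5′ to 3′ direction of the plus strand, with the p53 letters in capitals. They are chr17:29090729-29090978, whose match begins 48 bases before the start, and chr17:29093519-29093768, which has none. The counts are per gene, so the transcripts from these starts were not told apart, and a match of letters is a description and not a bound site.
Cdkn1a upstream start: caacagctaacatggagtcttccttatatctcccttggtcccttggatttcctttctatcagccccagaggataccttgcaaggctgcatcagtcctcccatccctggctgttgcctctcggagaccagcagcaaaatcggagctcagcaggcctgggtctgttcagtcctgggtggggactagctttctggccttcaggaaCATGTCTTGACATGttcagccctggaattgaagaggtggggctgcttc
Cdkn1a downstream start: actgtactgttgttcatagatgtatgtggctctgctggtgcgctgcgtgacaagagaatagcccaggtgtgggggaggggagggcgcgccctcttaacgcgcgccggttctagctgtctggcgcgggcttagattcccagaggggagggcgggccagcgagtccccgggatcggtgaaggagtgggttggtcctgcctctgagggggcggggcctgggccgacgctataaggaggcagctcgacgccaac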

How the data were processed

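Bulk RNA-seq of 5 PBS and 5 DMM kidneys was used, 1 library per mouse. The authors aligned reads to mm10 (the submitters' notes name HISAT2 2.0.5) and deposited gene counts, FPKM values, gene length in base pairs, and group means, a signal of counts over size factors. The counter and its use of strand are not given in the sources used here. The authors' fold changes and p-values from DESeq2 were not used. Gene positions of 10 of 10 markers equal those of GENCODE M21.

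Counts were filtered by filterByExpr, scaled by TMM and tested with edgeR 4.0.16 (quasi-likelihood, R 4.3.3), Benjamini-Hochberg adjusted over all tested genes. The study's 1.5-fold minimum was used. Standard errors are the absolute log2 fold change over the square root of F, and log2 CPM used a prior count of 2. Correlations used 100000 permutations, two-sided. Markers and 17 further lists were chosen with earlier results of these data known. Named genes were the markers, the 4 of smallest p over the 8 libraries and the 2 most abundant of the injured tubule and p53 lists, the 2 most abundant of each other list, and the 5 most like Havcr1. One gene that this rule names is not reported here. Alternatives were DESeq2 1.42.0, other scalings, filters and thresholds, a replicate block and each library left out. A correction for gene length was added later. Steps were tested on simulated data. P-values measure the spread between mice. Reads carry no molecular identifiers in the sources used here.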

Additional observations from a re-analysis of the deposited data

Results flagged for a closer look

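Among the 54 groups of 5 libraries checked, over the 10 markers and 17 gene lists, 2 had a library far from the others by Dixon's ratio, where chance gives about 1 in 20. Both were DMM replicate 1. Its Cdkn1a level was 80.1 CPM, against 54.8 to 58.7 CPM in the other DMM kidneys (ratio 0.847 of the group's range). Its mean log2 CPM of interferon response genes was -0.11 relative to PBS, against -3.52 to -2.75 (ratio 0.773).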

How the results depend on the processing

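Over all 10 libraries, DESeq2 called 14 genes higher and 36 lower against 0 and 0, and leaving out 1 library gave 0 to 50 higher and 0 to 436 lower, with both highest counts without DMM replicate 1. Over the 8 libraries, 452 higher and 590 lower became 749 and 911 with DESeq2, 276 higher with library size alone, 131 to 1129 and 276 to 1281 with 1 library left out, and 0 and 0 with the replicate block. Same-numbered libraries did not deviate together (r = -0.06, 0.079, 0.341, 0.124 and -0.223 for replicates 1 to 5), and only PBS replicate 2 of 5 correlated best with its own number, so samples share only a number. In place of 0 markers called lower over the 8 libraries, there was 1 with DESeq2 (Krt19), library size alone (Cdkn1a), no filter (Cdkn1a), an adjusted p under 0.1 (Krt19), no minimum fold change (Cdkn1a) and the gene length correction (Krt19), and 0 to 2 with 1 library left out. From DESeq2 to the gene length correction, in the same order, 911, 700, 549, 826, 662 and 681 of all genes were called lower, against 590. Those called higher were 749, 276, 409, 647, 525 and 581, against 452. DESeq2 and the fit with no filter tested 30191 genes, and the others 16550. Apart from the counts without a minimum fold change or with the looser p, the cause was not tested.

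Of 190 marker log2 fold changes under alternatives over all 10 libraries 177 kept direction and call, and of 170 over the 8 libraries 147. Over all 10 libraries, these markers turned sign with 1 library left out: Lcn2 (-0.0409 to 0.157), Vcam1 (-0.42 to 0.0147), Krt8 (-0.0725 to 0.0421) and Clu (-0.12 to 0.0169). Outside the markers and these counts, so did Krt7 (-0.0798 to 0.13), Krt5 (-0.68 to 0.0744) and Kap (-0.0162 to 0.838). Lcn2 was -0.0145 with library size alone, and Krt8 was 0.000384 with at least 1 CPM and 0.0845 with the length correction. Over the 8 libraries, the markers Havcr1 (-0.00495 to 0.30), Lcn2 (-0.13 to 0.12), Sox9 (-0.16 to 0.0845) and Krt20 (-0.0974 to 0.47) turned with 1 library left out. Krt7 (-0.24 to 0.0589), not a marker here, turned as well. The replicate block gave -0.0298 for Havcr1, 0.0132 for Sox9 and -0.29 for Krt20. Lcn2 was 0.00395 with RLE size factors and 0.0602 with the length correction. Over the 8 libraries, r with proximal tubule genes turned to 0.139 for Lcn2 and 0.003 for Krt20. For Havcr1 it turned to 0.037 without PBS replicate 4 and DMM replicate 5, and Spearman's rho of Lcn2 over all 10 libraries was 0.055.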
